A study of Homo sapiens with 12 samples.

Results

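The transcriptome of the control line after androgen add-back was compared with that of the same line kept in full medium. The comparison used 4 of the 12 samples of the series, the Ctr DHT pair and the Ctr FM pair, chosen by their labels, with the Ctr EtOH pair as the starved reference. All were LNCaP-Talen cells, a subline of the human prostate cancer line LNCaP, and Ctr was the vector control of a TALEN genome edit that leaves Bag-1L intact, Bag-1L being the long nuclear isoform of the BAG1 cochaperone. FM cells grew throughout in medium with untreated fetal bovine serum. EtOH and DHT cells were moved for 72 h to medium with charcoal/dextran-treated serum, which the paper's methods give as free of phenol red. They then received ethanol vehicle or dihydrotestosterone (DHT) at 10 nM, each for 16 h. The KO group, the Bag-1L knockout line under the same media, enters only at the end. Edited clones were isolated singly by dilution, so the KO line represents few founding cells. Whether the control line was cloned is not stated in the paper's methods. Each group holds biological duplicates, and p-values rest on a spread per gene that was estimated over all 12 samples together, although groups differed in spread. DHT and FM cells differed in serum treatment, in phenol red, in the days of starvation and in DHT itself, and these contributions cannot be told apart.

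Androgens are steroid hormones that switch on secretory genes of the luminal prostate cell and shut down others. Charcoal treatment strips steroids and other small lipophilic molecules from serum, and LNCaP cells, whose growth depends on androgen, slow or stop dividing in it. DHT then supplies the androgen without the other molecules that charcoal removes. S phase genes are switched on by E2F factors at the end of G1, and mitotic genes by the B-MYB and FOXM1 complexes that act through the CHR element of their promoters. Many mitotic promoters also hold CCAAT elements.

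Gene counts numbered 23084334 and 26510205 in the FM samples and 26065289 and 27258492 in the DHT samples, within the 20826843 to 30354666 of all 12. The luminal identity of the line was plain, since the 10 luminal markers summed to 3536 to 3630 CPM (counts scaled to each library's total) in FM, 3015 to 3065 in EtOH and 5146 to 5209 in DHT, with none at 0. The 6 basal markers summed to 0.966 to 1.83 CPM over the same 6 samples and TP63 never passed 4 normalized counts. The 7 fibroblast markers summed to 18.8 to 19.7 in FM, 30.8 to 35.6 in EtOH and 36.4 to 39.7 in DHT, nearly all of it COL1A1, and the 7 blood and endothelial markers to 5.10 to 9.49. Replicates differed by a median of 0.08 on the log2 scale in FM, 0.17 in DHT and 0.24 in EtOH over the 11374 genes whose normalized counts averaged 100 or more. The log2 change of DHT against FM rose with the GC content of the transcript, with a Spearman correlation of 0.51 across 11228 genes, which are not independent replicates. It fell to 0.04 when size factors were set within 20 GC bins, so the counts of each gene list are also given under that fit, called the GC-binned fit. FM replicates themselves differed along GC content (Spearman correlation -0.56).

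DHT did not return the transcriptome of starved cells to that of full medium. Of 16521 genes tested, 3137 (19.0%) differed between DHT and FM by at least 1.5-fold at an adjusted p of at most 0.05 in the DESeq2 Wald test. Of these, 1748 (10.6% of tested) were higher in DHT and 1389 (8.41%) were lower, 1223 differed by at least 2-fold and 144 by at least 4-fold. The DHT and FM samples did not overlap in any of the 3137, and in 69.3% of all genes tested. With 2 samples a group a call nearly requires this, so it lends the calls no further support. A separate test for likeness placed 5246 of 11957 genes (43.9%) within 1.5-fold of FM. The gene lists count members tested for DHT against FM, so their background for likeness is 5246 of the 16521 genes tested. The GC-binned fit called 2399 genes, 1933 of them shared with the 3137 in the same direction. In the other 2 contrasts of the control line, 3956 of 18549 genes (21.3%) differed between FM and EtOH, 1820 higher (9.81%) and 2136 lower (11.5%) in FM. Between DHT and EtOH, 2001 of 17535 differed (11.4%), 1059 higher (6.04%) and 942 lower (5.37%) in DHT. Over the 11374 well-counted genes the median absolute log2 change was 0.31 for DHT against FM, 0.33 for FM against EtOH and 0.21 for DHT against EtOH.

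Each of the 3956 genes that differed between FM and EtOH was then sorted by where DHT left it. DHT restored 844 (21.3%), meaning that they differed from EtOH in the FM direction and did not pass the test against FM, and 348 of these were shown to lie within 1.5-fold of FM. A further 193 were partly restored, lying between EtOH and FM and apart from both. The largest class, 1617 (40.9%), stayed unrestored, on the EtOH side of FM with no call against EtOH. DHT carried 75 past their FM level (overshot) and moved 39 away from it (opposite), and 1188 (30.0%) could not be decided. Outside the starvation response, 407 genes were moved by DHT beyond both EtOH and FM, 231 upward and 176 downward, a class named DHT beyond FM. Of all 16521 genes tested these classes made up 5.04% (restored), 1.17% (partly restored), 9.79% (unrestored), 0.454% (overshot), 0.236% (opposite), 6.8% (undecided) and 2.46% (DHT beyond FM). The 3 contrasts share samples, so the classes describe these 6 libraries and carry no test of their own. Unrestored genes that were high in FM had a median GC content of 44% and those low in FM 60.3%, and the GC-binned fit left 1187 genes unrestored. Whether GC content plays a part in the class was not tested.

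**Figure D1:**
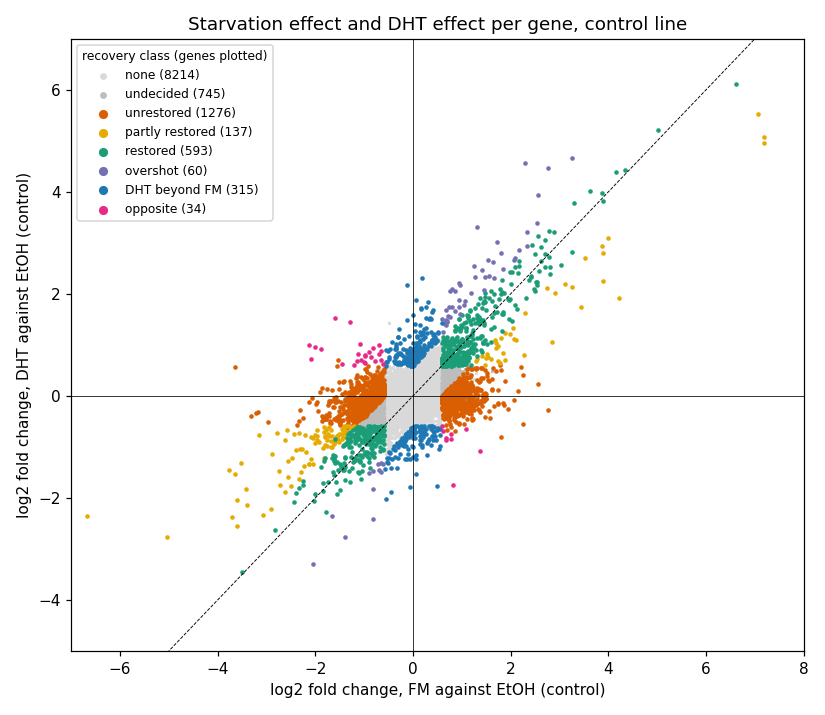
Log2 fold change of FM against EtOH (x axis) and of DHT against EtOH (y axis) in the control line for the 11374 genes whose normalized counts averaged 100 or more, coloured by recovery class. Both axes share the EtOH samples. Restored genes lie along the dashed line of equal change, unrestored genes lie flat along the x axis, and overshot genes lie past the line, 62 upward on the right and 13 downward on the left of all 75, and genes beyond FM lie above and below the origin along the y axis.

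Most classical androgen-induced genes were restored or carried past their full medium level. Of 28 on the list 26 were tested, and their median log2 change was 0.22 for DHT against FM, where all genes tested had 0.01, although the same genes stood 1.79 higher in FM than in EtOH. In class terms 15 were restored, 4 overshot, 2 were partly restored, 1 stayed unrestored and 3 lay beyond FM. Likeness within 1.5-fold of FM was shown for 11 of the 26, where the background was 5246 of 16521. Against FM itself 7 were higher (background 10.6%) and 3 lower (background 8.41%). The GC-binned fit also gave 7 and 3.

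FKBP5, the immunophilin cochaperone that is among the strongest androgen-induced genes (ENSG00000096060, chr6:35541362-35696360 on the minus strand of GRCh37), had 25795 and 27142 in FM, 2247 and 2037 in EtOH and 36045 and 33569 in DHT (normalized counts, as throughout). The FM and DHT samples sat far above EtOH and did not overlap each other, with DHT higher. Its log2 fold change 0.40 ± 0.09 (SE), adjusted p = 0.000174, was under the 1.5-fold minimum, and the test for likeness placed it within 1.5-fold (adjusted p = 0.0478). KLK3, which encodes prostate-specific antigen (ENSG00000142515, chr19:51358171-51364020 on the plus strand of GRCh37), had 10398 and 10173 in FM, 5354 and 7094 in EtOH and 10825 and 11770 in DHT. DHT was highest and the difference from FM was small, log2 fold change 0.14 ± 0.13 (SE), adjusted p = 0.466, with likeness shown at adjusted p = 0.00182. KLK2, the kallikrein that activates it, reached 21209 and 22103 in DHT against 16028 and 15391 in FM and 4467 and 5907 in EtOH. The DHT samples were above FM, by 0.46 ± 0.12 on the log2 scale, below the fold minimum.

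TMPRSS2, the membrane serine protease whose promoter is often fused to ERG in prostate tumours, had 3746 and 3756 in FM, 1156 and 1321 in EtOH and 3157 and 3008 in DHT. DHT fell short of FM by a log2 change of -0.28 ± 0.11 and counted as restored. ACSL3, which activates long-chain fatty acids, had 57252 and 61059 in FM, 9374 and 8764 in EtOH and 51522 and 52623 in DHT, a difference of -0.18 ± 0.10 that was shown within 1.5-fold (adjusted p = 0.000186). Among restored protein-coding genes whose normalized counts averaged 100 or more, the largest starvation losses were those of the amino acid transporter SLC38A4, with 307 and 449 in FM, 3.81 and 3.98 in EtOH and 314 and 227 in DHT, of CCDC141, with 363 and 419 in FM, 10.5 and 13.9 in EtOH and 472 and 430 in DHT, and of the transcription factor MAF. MAF had 5148 and 6151 in FM, 279 and 282 in EtOH and 5781 and 6288 in DHT. For SLC38A4 and MAF the FM and DHT samples overlapped.

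Genes that starvation had raised were restored in 415 cases, beside 429 that it had lowered. PLPPR1, a lipid phosphatase-related membrane protein of neurons, had 36.4 and 39.9 in FM, 485 and 380 in EtOH and 41.4 and 37.3 in DHT, so that FM and DHT overlapped. CBLN2, a secreted synapse organiser, had 851 and 841 in FM, 5829 and 6137 in EtOH and 954 and 991 in DHT, with both DHT samples slightly above FM (0.20 on the log2 scale, not past the threshold). DDC, the aromatic amino acid decarboxylase, came back from 2232 and 2596 in EtOH to 539 and 605 in DHT against 428 and 456 in FM.

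Other androgen targets came back only in part. UGT2B11 and UGT2B28 belong to the glucuronosyltransferases, which conjugate steroids for disposal. UGT2B11 had 3105 and 3574 in FM, 23.8 and 21.9 in EtOH and 675 and 737 in DHT, and DHT stayed below FM by log2 fold change -2.24 ± 0.14 (SE), adjusted p = 3.91e-51. UGT2B28 had 1263 and 1586 in FM, 10.5 and 8.95 in EtOH and 301 and 355 in DHT (log2 fold change -2.12 ± 0.17 (SE), adjusted p = 1.91e-34). Both were nearly absent from EtOH and at an intermediate level in DHT in each sample. The UGT2B genes are near-identical copies, so counts of uniquely placed reads may be split between them and their values are uncertain.

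INPP4B, a phosphoinositide phosphatase that restrains AKT signalling, had 622 and 628 in FM, 50.4 and 33.8 in EtOH and 292 and 296 in DHT and fell short of FM by -1.09 ± 0.15. HERC3, a ubiquitin ligase, and DOCK8, a guanine nucleotide exchange factor, fell short by -0.90 ± 0.17 and -0.90 ± 0.23. Repressed genes were held between the levels as well. CAMK2N1, an inhibitor of CaM kinase II, had 43.1 and 42.8 in FM, 1390 and 1418 in EtOH and 199 and 215 in DHT, so DHT removed most of the starvation level while both DHT samples remained above FM (log2 fold change 2.27 ± 0.21 (SE), adjusted p = 3.97e-25). GLYATL3, a glycine acyltransferase family member, showed the largest rise over FM of all named genes, log2 fold change 4.32 ± 0.52 (SE), adjusted p = 5.73e-15, with 7.73 and 1.95 in FM, 531 and 430 in EtOH and 98.9 and 87.8 in DHT. The chemokine scavenger receptor ACKR3 had 525 and 475 in FM, 5220 and 5297 in EtOH and 1225 and 1147 in DHT. The gene named GC, which encodes vitamin D-binding protein, had 314 and 322 in FM, 3908 and 4059 in EtOH and 1374 and 1392 in DHT. In both the 3 groups kept the same order, FM lowest, DHT between and EtOH highest. Over the androgen-repressed list, 10 genes tested, 2 were higher and 5 lower in DHT than in FM (background 10.6% and 8.41%). Their median log2 change was -0.16, and the GC-binned fit gave 2 and 4.

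**Figure D2:**
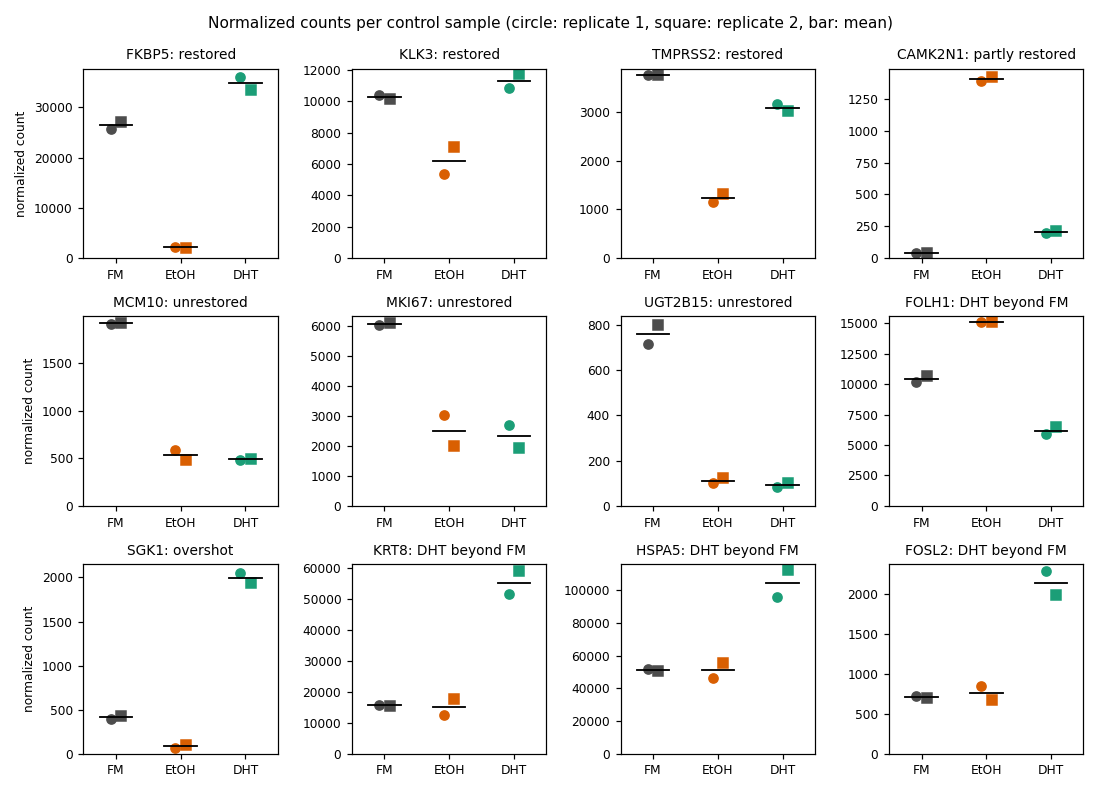
Normalized counts (y axes, from 0) of 12 genes in the 6 control samples by medium (x axes), with each replicate as a point and the group mean as a bar, and the recovery class in each panel title. FKBP5, KLK3 and TMPRSS2 return to FM, CAMK2N1 lies between, MCM10, MKI67 and UGT2B15 stay at the EtOH level, FOLH1 falls below both groups, and SGK1, KRT8, HSPA5 and FOSL2 exceed FM.

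Most proliferation genes were left at the starved level. Of the 47 genes of G1/S and DNA replication tested, 42 were lower in DHT than in FM and 0 higher (background 8.41% lower, 10.6% higher). Their median log2 change was -1.14 against FM and -0.09 against EtOH. Of 44 genes of G2/M and mitosis, 41 were lower and 0 higher, with medians of -1.07 against FM and -0.18 against EtOH. In each list 37 genes were unrestored. In the G1/S list 1 gene was partly restored and 1 was moved away from FM. The GC-binned fit called 44 and 42 lower, and over all alternative settings the counts ran from 41 to 45 and from 40 to 43. The mean log2 level of the G1/S list relative to FM was -1.16 and -1.13 in the DHT samples and -1.15 and -1.03 in the EtOH samples, and that of the G2/M list -1.07 and -1.04 in DHT and -0.90 and -0.86 in EtOH. In bulk RNA, fewer cycling cells and less of these transcripts per cell cannot be told apart.

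MCM10, which acts in activating the replicative helicase, had 1910 and 1914 in FM, 582 and 486 in EtOH and 482 and 495 in DHT. The DHT samples overlapped EtOH and lay far below FM, log2 fold change -1.97 ± 0.12 (SE), adjusted p = 8.68e-53. DTL, the substrate receptor of the ligase that degrades CDT1, had 1855 and 1894 in FM, 611 and 573 in EtOH and 502 and 534 in DHT (log2 fold change -1.86 ± 0.12 (SE), adjusted p = 1.73e-48). E2F1, the activator of S phase genes, had 2244 and 2066 in FM, 813 and 1167 in EtOH and 940 and 1013 in DHT (log2 fold change -1.14 ± 0.15 (SE), adjusted p = 3.21e-12). In all of these both DHT samples were below both FM samples, and for DTL below EtOH as well. E2F2, a relative of E2F1, had 463 and 477 in FM, 146 and 135 in EtOH and 150 and 104 in DHT. CLSPN, the claspin adaptor of the replication checkpoint, showed the largest fall on the list, log2 fold change -2.15 ± 0.23 (SE), adjusted p = 2.93e-19. The helicase subunit MCM2, the sliding clamp PCNA, the primase PRIM1 and the origin factor ORC1 fell by log2 changes of -1.29 ± 0.11, -1.17 ± 0.16, -1.55 ± 0.13 and -1.55 ± 0.13.

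Among mitotic genes, HMMR, a spindle-associated hyaluronan receptor, had 2555 and 2649 in FM, 1014 and 889 in EtOH and 857 and 913 in DHT (log2 fold change -1.56 ± 0.12 (SE), adjusted p = 3.54e-33). MKI67, the proliferation marker Ki-67, had 6061 and 6125 in FM, 3033 and 2010 in EtOH and 2721 and 1923 in DHT (log2 fold change -1.39 ± 0.19 (SE), adjusted p = 2.99e-12). Both starved groups were low. CCNB1, which encodes cyclin B1, had 8901 and 8611 in FM, 4939 and 6046 in EtOH and 4602 and 5317 in DHT (-0.82 on the log2 scale). CDK1, its kinase partner, had 14415 and 15485 in FM, 5594 and 6735 in EtOH and 5842 and 7240 in DHT (-1.19). For all 4 genes the DHT samples overlapped EtOH and lay below FM. ANLN, KIF14, CENPE and TTK, which act in cytokinesis, at the kinetochore and in the spindle checkpoint, fell by -1.39 ± 0.13, -1.43 ± 0.16, -1.42 ± 0.15 and -1.41 ± 0.12.

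Short promoter elements were counted over whole lists, whatever the change of each member. S phase and mitotic genes are known targets of E2F and of CHR and CCAAT factors, so the shares describe the lists and not the response to DHT. RefSeq promoters on GRCh38.p14 were matched by symbol, and the 250 bases before the start were searched on both strands. Of 38 G2/M promoters, 31 (81.6%) held CCAAT, 21 (55.3%) TTTGAA and 13 (34.2%) TTTAAA, the last 2 being the core of the CHR element, where 33%, 13.6% and 11.4% of all 27305 promoters did. Of 41 G1/S promoters, 8 (19.5%) held GCGGGAAA and 7 (17.1%) GCGCCAAA, both E2F site cores, against 1.42% and 0.553% of all promoters. CCAAT was also held by 58.5% of G1/S, 72% of ER folding, 42.9% of androgen-induced and 29.2% of immediate early promoters, so it is not limited to mitotic genes. The 150 bases before the start are printed for 2 mitotic and 2 S phase genes whose matches lie close to it, with matches to any of these elements in capitals. A match is a description and not a site.
CCNB1: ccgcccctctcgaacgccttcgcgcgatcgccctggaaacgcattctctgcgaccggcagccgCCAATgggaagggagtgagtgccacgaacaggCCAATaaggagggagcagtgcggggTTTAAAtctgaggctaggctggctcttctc
HMMR: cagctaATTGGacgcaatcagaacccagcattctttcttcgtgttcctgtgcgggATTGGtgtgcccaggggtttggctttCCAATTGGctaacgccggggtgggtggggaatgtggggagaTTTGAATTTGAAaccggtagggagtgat
E2F1: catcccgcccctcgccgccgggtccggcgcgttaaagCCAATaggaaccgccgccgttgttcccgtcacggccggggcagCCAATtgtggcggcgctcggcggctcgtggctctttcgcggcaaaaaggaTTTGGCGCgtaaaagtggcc
DTL: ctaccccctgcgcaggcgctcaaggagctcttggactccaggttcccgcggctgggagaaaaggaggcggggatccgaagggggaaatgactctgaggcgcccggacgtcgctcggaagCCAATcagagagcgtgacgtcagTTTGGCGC
CCNB1 (chr5:69167000-69167149, plus strand) holds 2 CCAAT and 1 TTTAAA. HMMR (chr5:163460482-163460631, plus strand) holds 4 CCAAT, counting both strands, of which 2 overlap in CCAATTGG and the others read ATTGG on the printed strand, and 2 adjoining TTTGAA. E2F1 (chr20:33686386-33686535, minus strand) and DTL (chr1:212035598-212035747, plus strand) each hold 1 GCGCCAAA, printed as its reverse complement TTTGGCGC, beside 2 CCAAT in E2F1 and 1 in DTL. Among 21 promoters of androgen-induced genes the hexamer AGAACA, core of the androgen response element, was found in 1 (4.76%), where 12.4% of all promoters held it, and the full inverted repeat of that element in 0, against 1 of 27305.

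Cell cycle brakes went both ways. Of 19 CDK inhibitor and D cyclin genes tested, 6 were higher and 2 lower (background 10.6% and 8.41%), and 7 and 2 in the GC-binned fit. CDKN1A, the p21 inhibitor, had 1955 and 1877 in FM, 2325 and 2348 in EtOH and 4351 and 3948 in DHT and exceeded both other groups (log2 fold change 1.12 ± 0.12 (SE), adjusted p = 9.7e-20). CDKN1C (p57) stayed at its starved level, with 25.4 and 26.3 in FM, 118 and 175 in EtOH and 86.8 and 110 in DHT. CDKN1B (p27) and CCND1 (cyclin D1) differed by 0.24 ± 0.12 and 0.09 ± 0.11 and did not pass the test, although CCND1 was shown within 1.5-fold (adjusted p = 4.68e-05). RBL1, the p107 pocket protein that is itself an S phase gene, fell by -1.67 ± 0.15, and CCNG2, an atypical cyclin of resting cells, was partly restored from 4680 and 4319 in EtOH to 1247 and 1450 in DHT against 655 and 708 in FM.

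Unrestored genes outside the cell cycle included the steroid-conjugating UGT2B15 (ENSG00000196620, chr4:69512315-69536370 on the minus strand of GRCh37), which had 715 and 801 in FM, 101 and 121 in EtOH and 81.8 and 101 in DHT. It is on the androgen-repressed list, yet it was high in FM and low in both starved groups, log2 fold change -3.05 ± 0.18 (SE), adjusted p = 2.23e-59, with 2 EtOH and 2 DHT samples far below FM. UGT2B17 had 421 and 415 in FM, 93.3 and 81.6 in EtOH and 45.4 and 74.6 in DHT. The EtOH and DHT samples of UGT2B15 overlapped, whereas those of UGT2B17 did not, DHT being lower. The same caution on near-identical copies holds. DHRS2, a short-chain dehydrogenase, AZGP1, a secreted zinc-binding glycoprotein of the prostate, and RND3, an atypical small GTPase, fell short of FM by -2.20 ± 0.14, -1.84 ± 0.23 and -2.04 ± 0.20. LDHA, lactate dehydrogenase A, had 32000 and 33277 in FM, 14727 and 15282 in EtOH and 15320 and 16609 in DHT (log2 fold change -1.03 ± 0.08 (SE), adjusted p = 1.88e-31). LDHA was 1 of 3 lower genes among 25 of glycolysis and hypoxia, of which 2 were higher and 16 were shown within 1.5-fold. The backgrounds were 8.41% lower, 10.6% higher and 5246 of 16521 within 1.5-fold, and the GC-binned fit gave the same counts of calls. KLF9, a target of glucocorticoid and thyroid hormone receptors, had 1949 and 2132 in FM, 977 and 838 in EtOH and 1012 and 1070 in DHT.

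In the other direction, genes raised by starvation stayed up. DIO3, the deiodinase that inactivates thyroid hormone (ENSG00000197406, chr14:102026476-102029789 on the plus strand of GRCh37), had 9.94 and 18.5 in FM, 177 and 183 in EtOH and 235 and 299 in DHT, log2 fold change 4.21 ± 0.36 (SE), adjusted p = 2e-28. FBXO2, a glycoprotein-binding F-box protein, COL5A1, a fibrillar collagen, and TMEM59L rose over FM by 2.93 ± 0.25, 2.88 ± 0.29 and 2.86 ± 0.29. For COL5A1 the FM samples held 45.3 and 20.4. COL1A1, which makes up most of the fibroblast marker sum, rose as well (log2 fold change 1.22 ± 0.14 (SE), adjusted p = 6.29e-17), while COL1A2 stayed under 5 normalized counts in all 6 control samples. Of the 7 fibroblast markers 3 were tested, and PDGFRB was lower (log2 fold change -1.76 ± 0.43 (SE), adjusted p = 0.000312).

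DHT also pushed genes beyond full medium. SGK1, a kinase induced by steroid receptors, had 390 and 434 in FM, 69.5 and 99.5 in EtOH and 2050 and 1936 in DHT. It rose from EtOH past FM in both samples, log2 fold change 2.27 ± 0.15 (SE), adjusted p = 3.4e-49. PMEPA1, an inhibitor of TGF-beta signalling, and SPDEF, a luminal ETS factor, overshot too. PMEPA1 had 3719 and 3920 in FM, 1740 and 1627 in EtOH and 7045 and 6612 in DHT. SPDEF had 5116 and 5073 in FM, 2452 and 3572 in EtOH and 12335 and 12802 in DHT. For each, both DHT samples lay above all 4 others. TUBA3D, a tubulin, led the overshot genes by starvation effect, with 902 and 966 in FM, 79.9 and 115 in EtOH and 2365 and 2565 in DHT (log2 fold change 1.40 ± 0.14 (SE), adjusted p = 3.24e-20), while GASK1B and BCHE, the butyrylcholinesterase, overshot downward with 59.6 and 57.5 and 110 and 154 in DHT against 147 and 129 and 215 and 212 in FM. The BCHE call was lost in the GC-binned fit and without Ctr DHT replicate 1.

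Of the lists, ER folding and secretory transport held the most genes beyond FM. Of its 28 genes, 14 were higher in DHT than in FM and 0 lower (background 10.6% and 8.41%), and 12 fell in the class beyond FM. The median log2 change was 0.58 against FM, 0.80 against EtOH and 0.26 for FM against EtOH. The GC-binned fit gave 16 higher, and the alternatives ran from 11 to 16. HSPA5, the ER chaperone BiP (ENSG00000044574, chr9:127997132-128003661 on the minus strand of GRCh37), had 51811 and 50781 in FM, 46509 and 55619 in EtOH and 95879 and 112710 in DHT, log2 fold change 1.02 ± 0.11 (SE), adjusted p = 3.18e-17. HERPUD1, which serves ER-associated degradation, had 4485 and 4332 in FM, 5231 and 5991 in EtOH and 10847 and 11807 in DHT. In both genes FM and EtOH were close and the DHT samples were above them. DNAJB9, an HSPA5 cofactor, had 1029 and 1155 in FM, 1043 and 1082 in EtOH and 2571 and 3109 in DHT, with the same pattern. PDIA4, a disulfide isomerase, SDF2L1 and MANF rose by 0.92 ± 0.09, 1.29 ± 0.23 and 0.86 ± 0.16.

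Among cholesterol genes, 14 of 25 tested were higher and 0 lower, where the background was 10.6% and 8.41%. The higher count ran from 14 to 15 over the alternatives and was 15 in the GC-binned fit. The median log2 change was 0.65 against FM and 0.66 against EtOH, with FM and EtOH 0.07 apart. MSMO1, a sterol demethylase subunit, had 3007 and 3188 in FM, 2978 and 3288 in EtOH and 4956 and 5693 in DHT, log2 fold change 0.78 ± 0.11 (SE), adjusted p = 1.87e-11. MVD, a mevalonate pathway enzyme, had 949 and 798 in FM, 1185 and 2096 in EtOH and 2602 and 3322 in DHT and showed the largest rise of the list. HMGCS1, an early enzyme of the pathway, differed by 0.48 ± 0.10, under the fold minimum except in the GC-binned fit. The regulators SREBF2 and SREBF1 differed by 0.46 ± 0.13 and 0.68 ± 0.11, of which only SREBF1 passed, and not in the GC-binned fit. Of 19 cholesterol promoters 15 (78.9%) held CCAAT and 1 (5.26%) the sterol element TCACNCCAC, against 33% and 0.875% of all promoters.

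Fatty acid genes did not follow as a list, with 4 of 20 higher, 2 lower (2 and 1 in the GC-binned fit), a median log2 change of 0.03 and 10 shown within 1.5-fold. The backgrounds were 10.6% higher, 8.41% lower and 5246 of 16521 within 1.5-fold. FASN, the fatty acid synthase, had 34366 and 29110 in FM, 26506 and 29940 in EtOH and 70835 and 58864 in DHT, log2 fold change 1.03 ± 0.14 (SE), adjusted p = 1.01e-11, which the GC-binned fit reduced to a log2 change of 0.44, below the fold minimum. FADS1, a desaturase, overshot with 4876 and 4997 in FM, 2851 and 2267 in EtOH and 9348 and 7663 in DHT. SCD, the stearoyl desaturase, had 20416 and 21112 in FM, 21860 and 20161 in EtOH and 23311 and 21372 in DHT, and was shown within 1.5-fold (adjusted p = 3.61e-05). ACACB, the carboxylase that limits fatty acid oxidation, fell by -0.93 ± 0.15, and ELOVL7, an elongase, by -0.61 ± 0.11, a call lost in the GC-binned fit and without Ctr FM replicate 2.

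**Figure D3:**
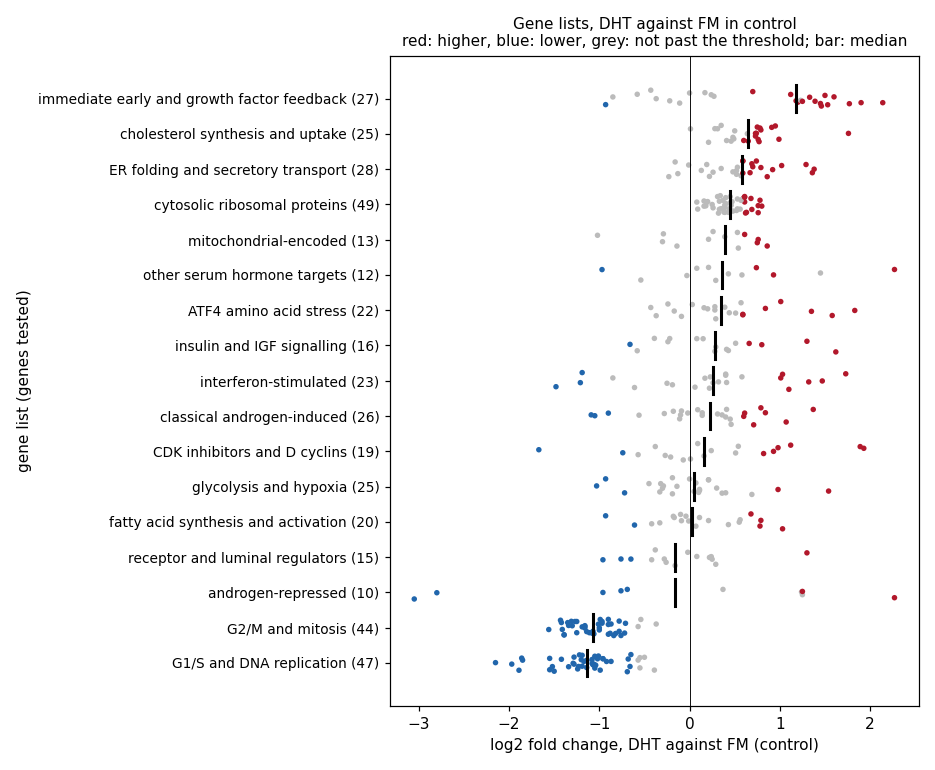
Log2 fold change of DHT against FM (x axis) of every tested member of 17 gene lists (y axis, number tested in brackets), with calls in red and blue and the list median as a bar. The G1/S and G2/M lists lie wholly left of 0, with medians of -1.14 and -1.07, and all cholesterol members lie right of 0, with a median of 0.65.

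Immediate early and growth factor feedback genes, 27 tested, were higher in 15 and lower in 1, with a median log2 change of 1.18 against FM (background 10.6% higher, 8.41% lower). The GC-binned fit gave 14 and 2, with a lower median of 0.78. FOSL2, an AP-1 subunit, had 716 and 691 in FM, 845 and 676 in EtOH and 2285 and 1976 in DHT, log2 fold change 1.60 ± 0.13 (SE), adjusted p = 1.95e-31. The Krüppel-like factor KLF4 had 322 and 304 in FM, 292 and 266 in EtOH and 885 and 920 in DHT. For both, FM and EtOH differed by less than 1.5-fold and every DHT sample was above them. By contrast JUND had 463 and 424 in FM, 1140 and 1851 in EtOH and 1367 and 1933 in DHT, already high in EtOH. JUN had 494 and 496 in FM, 883 and 991 in EtOH and 1424 and 1373 in DHT, in steps from FM to EtOH to DHT. SPRY1, an inhibitor of growth factor signalling that was named after its value was seen, was the single lower gene (-0.93 ± 0.19). The mean log2 level of this list relative to FM was 0.70 and 0.76 in DHT and 0.24 and 0.31 in EtOH. Replicates of JUND spread widely in both starved groups.

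The luminal keratins were higher in DHT than in both other groups. KRT8, keratin 8, had 15946 and 15561 in FM, 12504 and 17607 in EtOH and 51854 and 58988 in DHT, log2 fold change 1.81 ± 0.15 (SE), adjusted p = 3.67e-30. Its partner KRT18 had 5673 and 5481 in FM, 3922 and 4871 in EtOH and 12336 and 13166 in DHT (log2 fold change 1.19 ± 0.12 (SE), adjusted p = 2.12e-20). For both keratins every DHT sample was above the other 4. GADD45G, a growth arrest protein, had 377 and 405 in FM, 294 and 561 in EtOH and 1636 and 2213 in DHT. FADS3, a desaturase relative, had 847 and 857 in FM, 916 and 1172 in EtOH and 2634 and 2577 in DHT. Both rose in DHT without overlap. Downward, CDH26, a cadherin, had 949 and 891 in FM, 652 and 658 in EtOH and 195 and 191 in DHT. PTGS1, cyclooxygenase 1, had 167 and 151 in FM, 157 and 175 in EtOH and 43.4 and 52.5 in DHT. DHT did not overlap either other group in these. GLI3, the Hedgehog effector, fell by -1.59 ± 0.28.

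FOLH1, which encodes prostate-specific membrane antigen (ENSG00000086205, chr11:49166644-49230190 on the minus strand of GRCh37), had 10188 and 10691 in FM, 15068 and 15086 in EtOH and 5879 and 6444 in DHT. Both DHT samples were below all 4 others (log2 fold change -0.76 ± 0.09 (SE), adjusted p = 7.66e-16). The pioneer factor FOXA1 and the homeobox factor HOXB13 differed by 0.25 ± 0.10 and -0.42 ± 0.11, under the fold minimum, although HOXB13 passed in the GC-binned fit. Of 15 receptor and luminal regulators, 1 was higher and 3 lower (background 10.6% and 8.41%), with the same counts in the GC-binned fit. The corepressor NCOR1 and the coactivator subunit MED1 fell, -0.76 ± 0.21 and -0.65 ± 0.21, with DHT replicates apart at 7165 and 4727 and at 2344 and 1602. Both lost their call without Ctr DHT replicate 2. MED1 also lost it without Ctr FM replicate 2 and in the GC-binned fit.

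Among the 39 genes that DHT moved away from FM, ALB, which encodes albumin, had 747 and 800 in FM, 280 and 317 in EtOH and 125 and 157 in DHT (log2 fold change -2.45 ± 0.17 (SE), adjusted p = 8.86e-46). PRLR, the prolactin receptor, had 193 and 206 in FM, 139 and 88.5 in EtOH and 36.3 and 31.3 in DHT (log2 fold change -2.56 ± 0.30 (SE), adjusted p = 1.4e-15). Both were lower in EtOH than in FM and lower again in DHT. The cell cycle regulators E2F7 and MYB fell likewise by -1.73 ± 0.18 and -1.88 ± 0.30. GDF15, a stress-induced cytokine, had 78.4 and 52.5 in FM, 257 and 314 in EtOH and 585 and 557 in DHT. TUBA1A, a tubulin, had 91.7 and 108 in FM, 411 and 398 in EtOH and 688 and 878 in DHT. ACTA2, smooth muscle actin, had 98.3 and 103 in FM, 374 and 368 in EtOH and 710 and 689 in DHT. In these the order was FM lowest, EtOH next and DHT highest. CHST2, a sulfotransferase, and SDK2, an adhesion molecule, rose by 3.12 ± 0.22 and 2.82 ± 0.27. VEGFA, the angiogenic growth factor, had 1632 and 1461 in FM, 2481 and 2391 in EtOH and 4596 and 4399 in DHT (log2 fold change 1.54 ± 0.10 (SE), adjusted p = 1.49e-51).

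**Figure D4:**
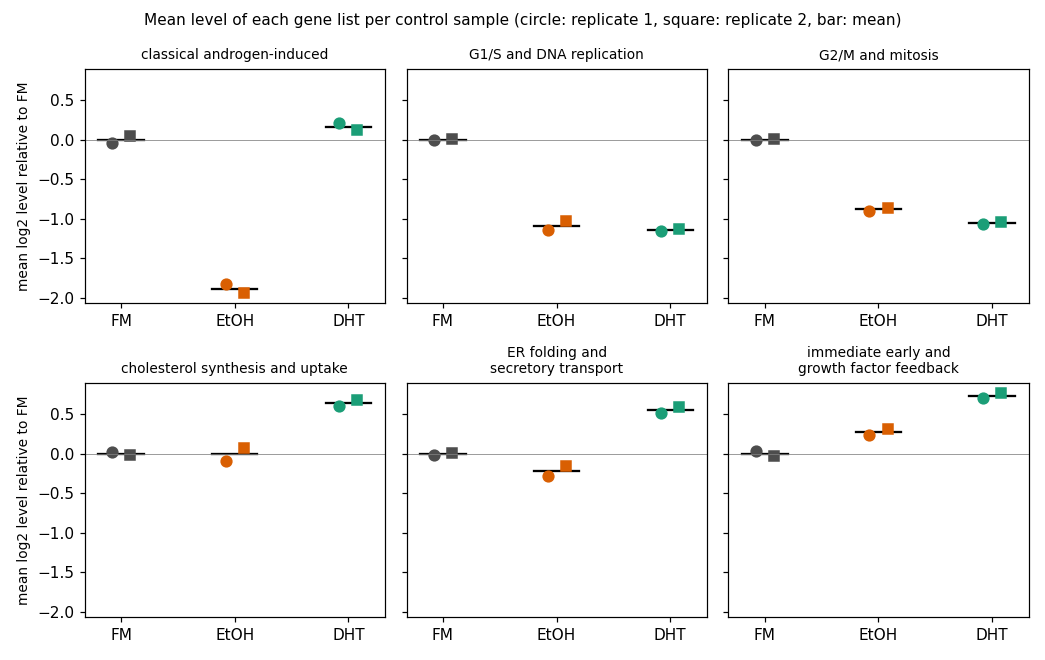
Mean log2 level of 6 gene lists relative to the FM mean (y axis) in each of the 6 control samples by medium (x axis), with replicates as points and the mean as a bar. Androgen-induced genes fall to -1.83 and -1.93 in EtOH and return to 0.21 and 0.12 in DHT, the cell cycle lists stay near -1 in both starved groups, and the cholesterol and immediate early lists reach 0.61 and 0.67 and 0.70 and 0.76 in DHT.

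The remaining lists stand beside the same background of 10.6% higher, 8.41% lower and 5246 of 16521 shown within 1.5-fold. ATF4 amino acid stress genes were higher in 7 of 22 and lower in 0 (5 and 1 in the GC-binned fit), with a median of 0.34 and 10 shown within 1.5-fold, led by DDIT3 (log2 fold change 1.83 ± 0.18 (SE), adjusted p = 1.15e-22), which had 373 and 310 in FM, 636 and 876 in EtOH and 1093 and 1328 in DHT. Insulin and IGF genes were higher in 4 of 16 and lower in 1 (5 and 0 in the GC-binned fit). IRS2, the insulin receptor substrate, overshot with 252 and 200 in FM, 145 and 114 in EtOH and 569 and 539 in DHT, IGFBP3 rose by 1.62 ± 0.14, and IGF1 had 107 and 100 in FM, 25.7 and 33.8 in EtOH and 74.7 and 56.5 in DHT with a call that several alternatives lost. Of 12 targets of other serum hormones 3 were higher and 1 lower, and the higher count ran from 1, in the GC-binned fit, to 4 over the alternatives. Interferon genes went up in 6 and down in 3 of 23 (7 and 2 in the GC-binned fit), HLA-B rising (1.32 ± 0.18) and IFIT1 falling (-1.48 ± 0.39). Of 14 neuroendocrine genes only 4 were tested and 3 were higher, also in the GC-binned fit, among them ENO2 with 51.9 and 42.8 in FM, 167 and 145 in EtOH and 154 and 131 in DHT and PEG10 with 48.6 and 54.5 in FM, 40.9 and 26.9 in EtOH and 184 and 178 in DHT. Cytosolic ribosomal protein genes were higher in 12 of 49 (3 to 22 over the alternatives, 5 in the GC-binned fit), with a median of 0.44. Their share of all gene counts was 4.79% to 4.96% in FM, 5.78% to 6.70% in DHT and 6.59% to 8.55% in EtOH, and the part of GC content and library in this was not tested. Mitochondrial-encoded genes were higher in 4 of 13 (6 in the GC-binned fit). BAG1 itself, the locus edited in the knockout, differed by 0.24 ± 0.18 in control and did not pass.

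In the KO line, which shares no sample with this comparison, 2162 of 16521 genes (13.1%) differed between DHT and FM, 1124 higher (6.8%) and 1038 lower (6.28%). The cell cycle lists were again low in DHT, 45 of 47 and 44 of 44, and 13 of 25 cholesterol genes were higher. ER folding genes were higher in 2 of 28, where control had 14, and 9 of the 28 passed the interaction test, all with the lower change in KO. Over all 12971 genes tested for it, 2.28% passed, 0.971% with the higher and 1.31% with the lower change in KO. Androgen-repressed genes passed in 5 of 10, all with the higher change in KO (4 to 6 over 17 alternatives). In KO 5 of them were higher and 2 lower in DHT than in FM, with a median of 0.875. ATF4, immediate early and G2/M genes passed in 6 of 22, 6 of 27 and 6 of 44, all with the lower change in KO. Those counts ran from 0 to 7, 0 to 7 and 1 to 10. HSPA5 had 43017 and 45222 in KO FM and 51788 and 52987 in KO DHT, and its change in KO differed from that in control by -0.78 ± 0.16 on the log2 scale (adjusted p = 0.000422). The number of ER genes called for this difference ran from 2 to 11 over 17 alternatives. The mean log2 level of the ER list relative to control FM was -0.253 and -0.230 in KO FM. It was -0.722 and -0.749 in KO EtOH and -0.125 and -0.155 in KO DHT. In control it was -0.284 and -0.162 in EtOH and 0.509 and 0.585 in DHT. DHT thus stood above EtOH in both lines, and KO EtOH below control EtOH.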

How the data were processed

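Total RNA of the 12 samples was made into Illumina TruSeq stranded mRNA libraries, and the authors mapped the reads to GRCh37 and counted them per Ensembl gene. The submitters' processing notes name CASAVA 1.7, TopHat2 2.0.11 and HTSeq 0.5.3p3. The HTSeq strand setting and the Ensembl release are not given in the sources used here. The deposited files hold raw counts for 63677 gene identifiers. The 5 tally rows that name no gene (26.9% to 31.5% of all rows' counts) were left out. Names and GRCh37 positions came from GENCODE v44lift37 (55665 identifiers matched), and 496 of 499 list entries matched.

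All 12 samples entered 1 DESeq2 1.42.0 fit (R 4.3.3) with a coefficient per group, as the study used DESeq2, on genes with at least 10 counts in total. A call needs a Benjamini-Hochberg adjusted p of at most 0.05 and a 1.5-fold change in the Wald test, and likeness was tested with the lessAbs alternative at 1.5-fold. On counts simulated for the DHT against FM comparison (26156 genes, 200 changed), DESeq2 recovered 84% of 2-fold and 99% of 4-fold changes with 6 false calls. The simulation gave all groups the same spread per gene, no trend along GC content and no difference shared by replicates. Its changed genes were drawn from those with higher counts. It checks the code and does not give the rate of false calls in these data. List levels are means of log2(normalized count + 1).

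The genes compared, the lists and the recovery classes were chosen with earlier results of these data known, so their counts are descriptions and no set test was run. Named genes are the 10 largest rises and falls among called protein-coding genes whose normalized counts averaged at least 100 over the 6 control samples and whose DHT and FM samples do not overlap, the 3 leading protein-coding genes at that count per recovery class and direction by the change FM against EtOH (for DHT beyond FM, DHT against FM), up to 6 called genes per list, 25 fixed genes and the 3 largest differences between the lines in each direction. The condition on overlap was written for all classes and for the differences between the lines as well, but was not applied to the restored and undecided classes, whose members need not differ from FM, nor to the differences between the lines. Genes on chromosome 8 were not named. Some genes that the rule names are not reported here. The lists cover androgen-induced and androgen-repressed genes, receptor and luminal regulators, G1/S, G2/M, CDK inhibitors, cholesterol, fatty acids, immediate early genes, insulin and IGF, other serum hormones, ER folding, ATF4, glycolysis, neuroendocrine, interferon, ribosomal and mitochondrial genes, and 4 marker lists. Alternatives were the edgeR 4.0.16 quasi-likelihood test, TMM scaling, other count filters and samples, the replicate block, GC-binned size factors, thinning, other fold minima and leaving out each replicate.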

Additional observations from a re-analysis of the deposited data

Results flagged for a closer look

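The change of DHT against FM differed between the control and KO lines in 296 genes by the interaction test of DESeq2 (2.28% of 12971 tested), 126 with the higher and 170 with the lower change in KO. DIO3 had 33.6 and 43.8 normalized counts in KO FM and 144 and 234 in KO DHT, so its rise was smaller in KO by a log2 difference of -1.92 ± 0.47 (adjusted p = 0.00548), a call lost in edgeR and when Ctr DHT replicate 2, Ctr FM replicate 1, KO DHT replicate 1 or KO FM replicate 2 was left out. GDF15 had 139 and 136 in KO FM and 293 and 428 in KO DHT, a difference of -1.75 ± 0.32 (adjusted p = 1.98e-05). ACTA2 had 55.0 and 50.4 in KO FM and 85.5 and 117 in KO DHT, a difference of -1.87 ± 0.32 (adjusted p = 3.14e-06). All 3 rose in both lines, and less in KO.

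Others had the higher change in KO. RND3, which fell in control, had 87.7 and 93.2 in KO FM and 120 and 116 in KO DHT, a difference of 2.43 ± 0.30 (adjusted p = 1.54e-12). PLPPR1, restored in control, had 44.8 and 40.6 in KO FM and 188 and 228 in KO DHT, a difference of 2.24 ± 0.37 (adjusted p = 1.04e-06). BCHE had 191 and 227 in KO FM and 510 and 503 in KO DHT, a difference of 1.97 ± 0.24 (adjusted p = 1.67e-12). The KO line stems from single-clone isolation, so Bag-1L loss and clone cannot be told apart.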

How the results depend on the processing

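The 3137 genes called for DHT against FM in control ranged from 2330 to 3555 over the tools, scalings, filters, sample sets and GC bins, and from 2290 to 3137 with each replicate left out. With no fold minimum and with a 2-fold minimum, the counts were 5640 and 1223 for DHT against FM in control, 6478 and 1900 for FM against EtOH, 3491 and 888 for DHT against EtOH, 4044 and 942 in KO, 1325 and 447 restored, 460 and 66 partly restored, 2897 and 625 unrestored, 248 and 22 overshot, 185 and 7 opposite, and 842 and 121 beyond FM. The undecided class fell to 733 at 2-fold. Likeness within 1.5-fold was called for 3411 genes from the control samples alone, and for 2969 (without Ctr FM replicate 1) to 3882 with a replicate left out. The partly restored class ran from 122 (without Ctr DHT replicate 1) to 241, and the class beyond FM from 311 to 599.

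The count of genes that differed between the lines was the least stable, 91 in edgeR, 934 from the DHT and FM samples alone, 92 at 2-fold, 508 with the replicate block and 54 (without KO FM replicate 2) to 773 (without Ctr DHT replicate 1) with a replicate left out. The cause was not tested. Replicate numbers did not pair the samples over all groups, since correlations of the replicate differences between groups ran from -0.415 to 0.692. The highest, 0.692, was between Ctr EtOH and Ctr DHT, whose replicates thus shared a difference that the main fit did not model. With the replicate block, 3104 genes were called for DHT against FM in control. For DHT against EtOH it called 1942, where the main fit called 2001. Of the 135 named genes called for DHT against FM, 118 kept their call and direction in the GC-binned fit and 17 lost it, while 3 uncalled ones gained it. With 2 samples a group, changes near 1.5-fold are the least certain.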

Other observations

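For the undecided genes that lead by starvation effect, replicates of the starved groups lay far apart. ZDHHC20, a palmitoyltransferase, had 1160 and 1336 in FM, 597 and 218 in EtOH and 690 and 449 in DHT, SMCR8, an autophagy regulator, had 785 and 753 in FM, 422 and 160 in EtOH and 587 and 271 in DHT and AAK1, an endocytic kinase, had 258 and 246 in FM, 161 and 53.7 in EtOH and 247 and 153 in DHT. In each of them replicate 2 was the lower in both EtOH and DHT, and for FDXR, a mitochondrial reductase, the EtOH samples held 834 and 1472. None of these 4 passed the test of DHT against FM or against EtOH as reported. The call of ZDHHC20 against FM was gained in 6 alternatives, the replicate block and edgeR among them, and those of SMCR8 and FDXR without Ctr DHT replicate 1.

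Steroid-responsive regulators were also found among the overshot genes. ZBTB16, a zinc finger repressor, had 515 and 574 in FM, 219 and 149 in EtOH and 1108 and 774 in DHT, and PER1, a circadian regulator, had 1148 and 1162 in FM, 591 and 611 in EtOH and 2386 and 2008 in DHT (log2 fold change 0.93 ± 0.12 (SE), adjusted p = 1.28e-12). Both exceeded FM in every DHT sample, although PER1 lost its call in the GC-binned fit and ZBTB16 without Ctr DHT replicate 1.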
